A study of Rattus norvegicus with 9 samples.

Results

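Interferon-stimulated genes are the genes that cells switch on after sensing an interferon. A list of 41 of these genes was looked up on Affymetrix rat expression arrays of CD68+ monocytes/macrophages, and 36 had a probe set annotated with exactly their symbol, among 14218 genes measured in that way. Where a gene had several probe sets, the one with the highest mean signal was read. The other 5 genes (Ifi47, Rigi, Gbp5, Trim21 and Xaf1) had no such probe set and were not analysed here. Every one of the 36 entered the test, since no filter on low signals was used.

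Type I interferons such as interferon β bind the receptor formed by Ifnar1 and Ifnar2, and the kinases Jak1 and Tyk2 then activate Stat2, among others. Stat2 and Irf9 are parts of the complex that binds the interferon-stimulated response element (ISRE) in promoters. Interferon γ signals through Ifngr1 and Ifngr2 with Jak1 and Jak2, and its target promoters carry the gamma-activated site (GAS). In macrophages this program provides antiviral effectors, chemokines that draw lymphocytes, and proteins of antigen processing.

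CD68+ cells came from male Wistar rats and were sorted on magnetic columns with an antibody to CD68. FBR cells (n = 3 arrays) were taken without culture from patches of acellular photo-oxidized bovine pericardium, held in steel cages in the peritoneal cavity for 3 days. In vitro activated cells (n = 3) were blood CD68+ cells kept for 3 days on PTFE coated with fibrinogen (FG), and blood cells (n = 3) were freshly isolated and not cultured. Rats were anaesthetized for the implant surgery and for the blood collection, and no genetic change or other drug treatment was described. The number of rats behind an array was not stated, and n therefore counts arrays. The in vitro activated cells differ from the blood cells both in adhesion to FG and in 3 days of culture, which cannot be told apart. The FBR tissue was digested with collagenase A and plasmin before sorting, a step not described for the other cells. Blood was instead passed over a density gradient for mononuclear cells, a step not described for the FBR tissue. Digestion or gradient, site and implant thus go together in every comparison of FBR cells and cannot be told apart.

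Signals are MAS 5.0 values scaled by the authors to a trimmed mean of about 500 on each array, and the median signal was 69.5 to 77.34 on FBR, 86.95 to 110.09 on in vitro activated and 97.26 to 102.75 on blood arrays. Pearson's r between arrays was 0.931 to 0.976 within groups and 0.796 to 0.899 between groups. Cd68 was higher in both other groups than in blood, with log2 fold changes of 1.62 (SE 0.41, adjusted p = 0.012) in FBR and 2.08 (SE 0.41, adjusted p = 0.0044) in in vitro activated cells. The blood preparations held lymphocyte RNA. The 7 B cell markers measured summed to 1239 to 1767 in FBR and 595 to 2400 in in vitro activated cells. In blood the sum was 39219 to 54614. All 7 were lower than blood in both comparisons, against 19.2% of all genes in FBR and 12.2% in in vitro activated cells. The 11 NK cell markers summed to 313 to 484 in FBR and 377 to 479 in in vitro activated cells, against 2867 to 8613 in blood, and the 11 T cell markers to 1569 to 2627 in FBR and 632 to 2703 in in vitro activated cells, against 5972 to 6764 in blood. In such mixed preparations fewer cells of a type and less RNA per cell cannot be told apart. The part of these lymphocytes in the differences from blood was not tested.

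The summed signal of the 36 genes was 72244 to 76950 in FBR cells, 24962 to 45892 in in vitro activated cells and 47150 to 86415 in blood cells. These sums are led by a few bright probe sets, so the genes were also compared one by one. A gene was called where the limma test gave a Benjamini-Hochberg adjusted p under 0.05 over all 31099 probe sets, on log2(signal + 16), and all fold changes below are on that scale. In in vitro activated cells 24 of 36 genes (66.7%) were lower than in blood, against 12.2% of all genes, and 1 was higher, against 15.4% of all genes. In FBR cells 17 of 36 (47.2%) were lower than in blood, against 19.2% of all genes, and 3 were higher, against 14.6% of all genes. Set against each other, FBR cells had 10 genes (27.8%) above in vitro activated cells, where 8.88% of all genes were higher, and 6 (16.7%) below them, the same share as among all genes (16.7%).

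The median log2 fold change over the 36 genes was -0.64 for FBR over blood (all genes -0.09), -1.47 for in vitro activated over blood (all genes 0.13) and 0.48 for FBR over in vitro activated (all genes -0.23). Both comparisons with blood use the same 3 blood arrays. Centring each array on its median shifted the median of all genes to 0.27 in FBR over blood and to 0.11 in FBR over in vitro activated, and the share of called genes that were higher to 65.5% (43.2% as deposited) and 61.9% (34.7% as deposited). Under that scaling 3 of the 36 were higher and 12 lower in FBR over blood, 1 and 24 in in vitro activated over blood, and 12 and 3 in FBR over in vitro activated. With quantile normalization the splits were 2 and 13, 1 and 23, and 10 and 4, and the share of called genes that were higher was 54% and 44.6% in the comparisons of FBR with blood and with in vitro activated cells. No gene called under the deposited scaling changed its direction under either. With centring the median of the 36 was -0.28 in FBR over blood and 0.82 in FBR over in vitro activated. With quantile normalization these medians were -0.50 (all genes 0.07) and 0.55 (all genes -0.07). The shares of all genes called higher or lower under these scalings are not given, so the splits are not set against them.

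**Figure D1:**
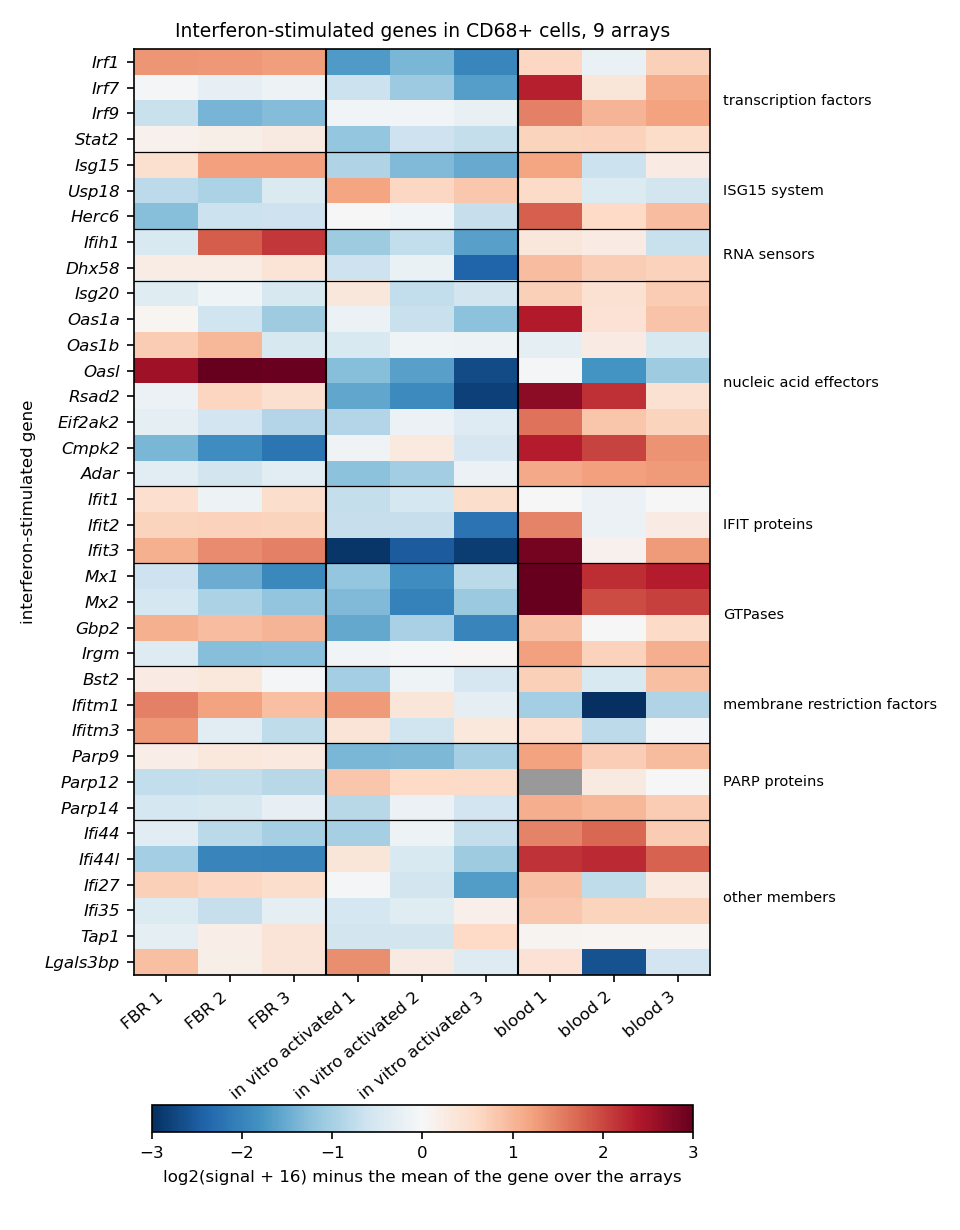
Each row is 1 of the 36 interferon-stimulated genes, grouped by role, and each column is 1 array (FBR, in vitro activated, blood). The color gives log2(signal + 16) minus the mean of that gene over its arrays, from -3 (blue) to 3 (red), with the value left missing for Parp12 in blood replicate 1 in gray. Blood replicate 1 had the highest signal of the blood arrays in 26 of 35 genes, and Oasl is red in the FBR arrays alone.

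The blood arrays did not carry the genes equally. The median deviation of the 36 genes from their mean over arrays was -0.11, -0.14 and -0.20 (log2) in FBR replicates 1, 2 and 3, -0.66, -0.55 and -0.70 in in vitro activated and 1.08, 0.40 and 0.68 in blood replicates. Blood replicate 2 was the lowest blood array in 21 of 35 genes. Of the blood arrays it also had the lowest sums of macrophage markers (33655, against 53356 and 50861 in replicates 1 and 3), blood monocyte markers (14463, against 36185 and 23515) and neutrophil markers (3372, against 17751 and 16286), and the highest NK cell sum (8613). Their part in the spread of the blood values was not tested. Without blood replicate 1, 5 genes were higher in FBR than in blood.

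**Figure D2:**
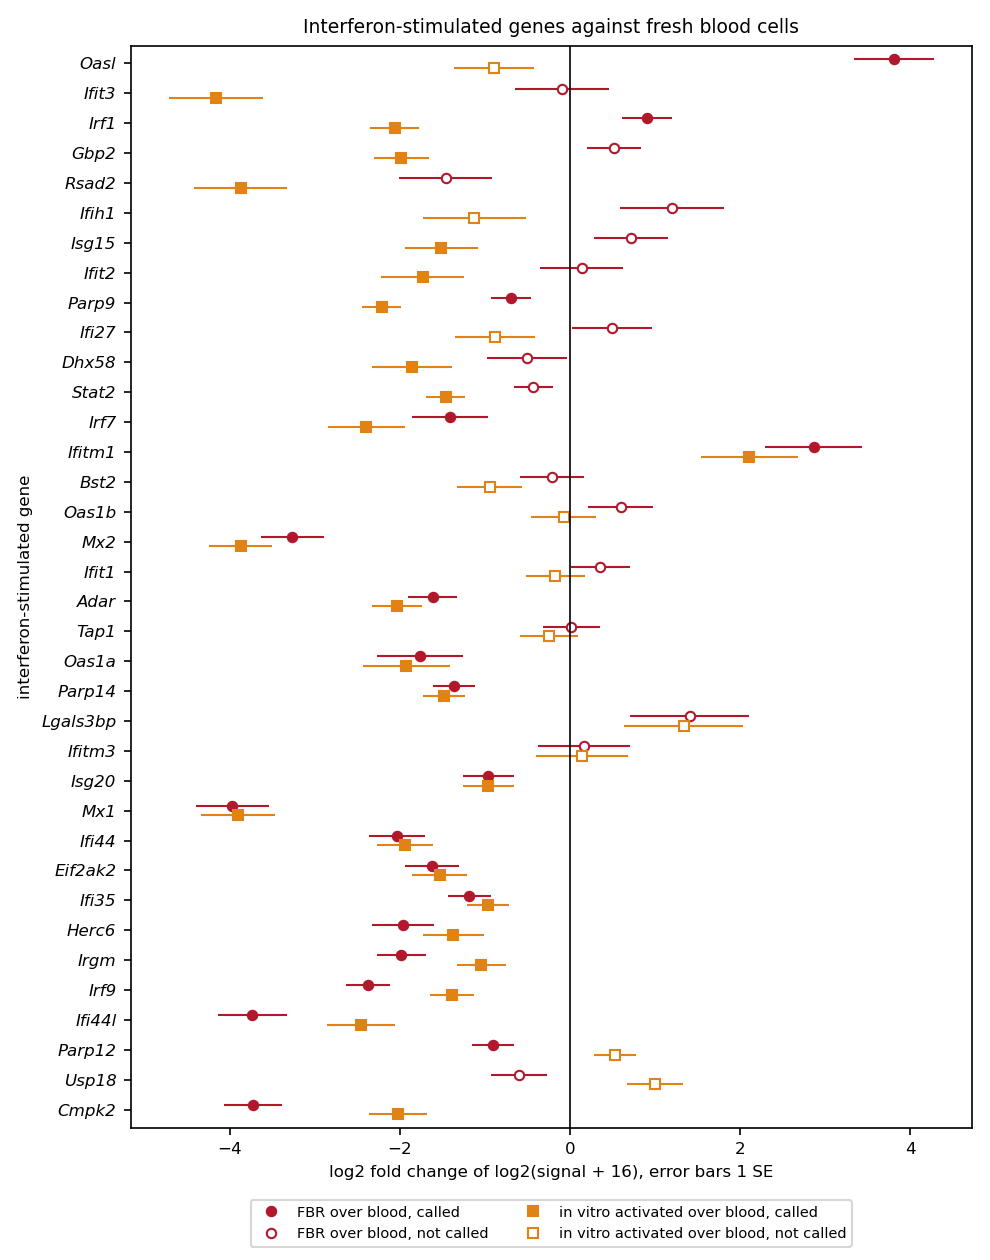
Log2 fold changes of log2(signal + 16) with 1 SE for FBR over blood (circles) and in vitro activated over blood (squares), 3 arrays a group. Filled symbols passed adjusted p under 0.05. Genes run from the highest FBR over in vitro activated difference (Oasl, 4.70) to the lowest (Cmpk2, -1.71), and both sets of points use the same blood arrays.

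Promoter windows of 300 bases (250 before to 50 after the start, RefSeq, GRCr8) were at hand for 28 of the 36 genes. The ISRE core, spelled GAAA, 2 bases of any kind and GAAA and searched on both strands, was found in 19 of the 28 (67.9%), against 1312 of 33469 windows of the genome (3.92%). The GAS motif TTCNNNGAA, which reads the same way on both strands, was found in 9 (32.1%), against 2970 of all windows (8.87%), and 7 of the 28 held both. The 2 motifs overlapped only in Bst2. ISRE cores were found on both sides of the comparison of FBR with in vitro activated cells. Of the 10 genes higher in FBR cells than after in vitro activation 8 had a window and 4 of these an ISRE core, of the 6 lower genes 5 had a window and 3 a core, and of the 20 not called 15 had a window and 12 a core.

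The sites below are shown because their genes behaved differently although each holds the same core. They are printed with 10 bases on each side, on the strand that reads GAAA, with the core in capitals. The first 4 belong to genes that were higher in FBR cells than after in vitro activation and the next 3 to genes that were lower, with Oas1a and Irf7 last as genes lower than blood in both comparisons.
Gbp2: ttaagacaatGAAAGTGAAActaaaaaact
Ifit3: gtggaaactaGAAACTGAAAcagacttaaa
Rsad2: tctgttttctGAAAATGAAAgttgaaccag
Ifih1: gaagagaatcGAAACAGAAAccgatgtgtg
Irgm: tcaaggaataGAAACTGAAAccgactctct
Ifi44l: ttccagtgagGAAAATGAAAgtaaagggca
Parp12: ggaaggaaacGAAACCGAAAgccggcccca
Oas1a: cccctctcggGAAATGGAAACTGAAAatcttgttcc
Irf7: tgcgtctcggGAAAATGAAAcctaaactgt
The sites lie at chr2:234005686-234005715 (Gbp2, minus strand), chr1:241527272-241527301 (Ifit3, minus), chr6:48788248-48788277 (Rsad2, plus), chr3:67684008-67684037 (Ifih1, minus), chr10:33742593-33742622 (Irgm, minus), chr2:243328654-243328683 (Ifi44l, plus), chr4:68850540-68850569 (Parp12, plus), chr12:41330415-41330450 (Oas1a, plus) and chr1:205800073-205800102 (Irf7, plus). Their cores begin 31, 44, 147, 59, 34, 59, 18, 41 and 69 bases before the start of the gene in the same order. Irgm and Ifit3 share the core GAAACTGAAA, Rsad2, Ifi44l and Irf7 share GAAAATGAAA, and in Oas1a overlapping cores form one run. These are matches of letters, not measured binding.

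Irf1 had no ISRE core in its window and 1 GAS, which starts 142 bases before the start of the gene. Its window (chr10:38417685-38417984, plus strand) is given whole, with the GAS in capitals, because Irf1 moved in opposite directions in the groups.
Irf1: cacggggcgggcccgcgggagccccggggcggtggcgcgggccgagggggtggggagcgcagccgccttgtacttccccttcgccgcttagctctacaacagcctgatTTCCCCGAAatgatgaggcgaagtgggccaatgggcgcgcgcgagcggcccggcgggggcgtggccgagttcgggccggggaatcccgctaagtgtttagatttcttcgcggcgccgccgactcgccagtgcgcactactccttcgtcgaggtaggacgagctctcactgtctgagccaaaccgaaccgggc
Irf9 likewise had 1 GAS and no ISRE core, and neither motif was found in the windows of Stat2, Herc6, Oasl, Cmpk2, Mx1, Parp9 and Ifi35. No match means only that these letters are not in the window.

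**Figure D3:**
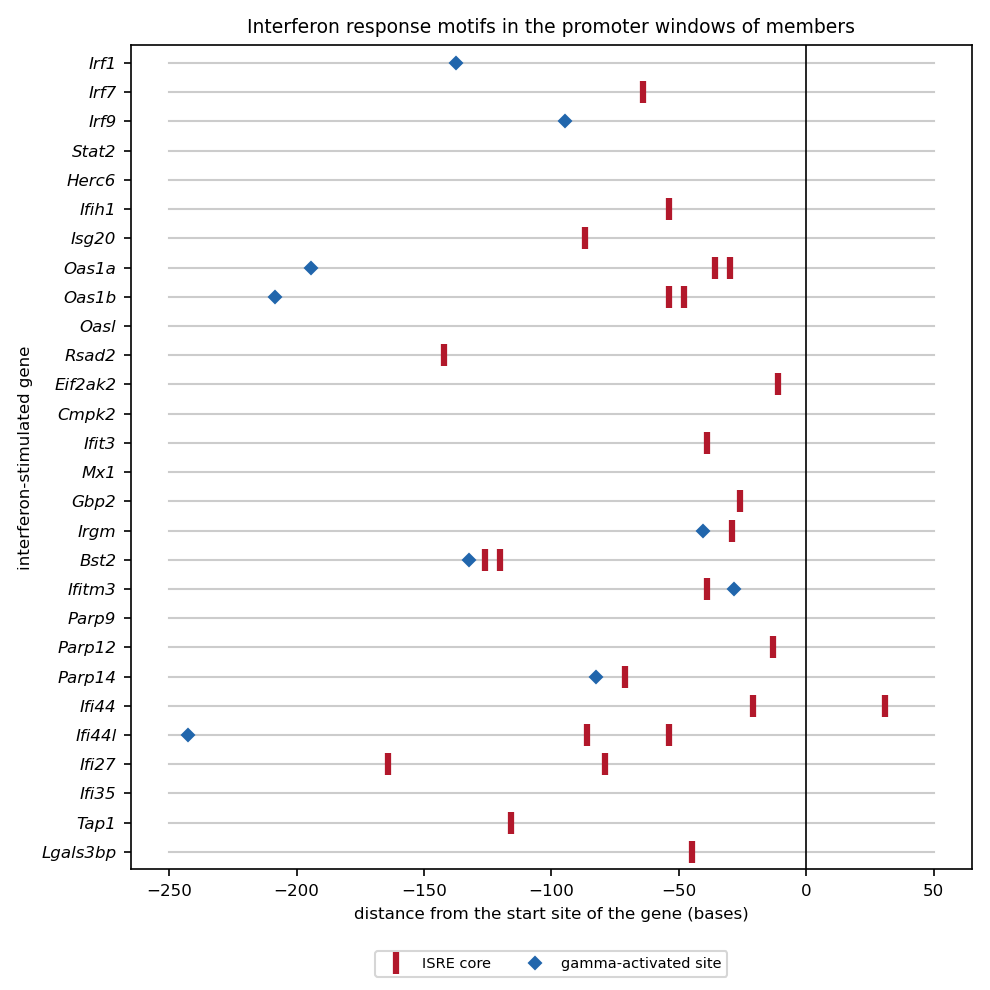
Positions of ISRE cores (red bars) and GAS motifs (blue diamonds) in the 300-base windows of 28 interferon-stimulated genes, in bases from the start of the gene. Of the 28 windows 19 held an ISRE core and 9 a GAS.

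The transcription factors of the pathway moved apart in FBR cells. Irf1, a factor induced by interferon γ, had signals of 5829, 5749 and 5549 in FBR cells, 699, 892 and 584 in in vitro activated cells and 3563, 2024 and 3815 in blood cells. The 3 groups did not overlap. Irf1 was 7.84-fold higher in FBR cells than after in vitro activation (log2 fold change 2.97, SE 0.29, adjusted p = 0.00014) and 4.16-fold lower after in vitro activation than in blood (-2.06, SE 0.29, adjusted p = 0.00073). The difference between FBR and blood was smaller (0.91, SE 0.29, adjusted p = 0.036), and that call was lost without any 1 of the FBR arrays or without blood replicate 2 (adjusted p 0.084 to 0.096), and also with quantile normalization (adjusted p = 0.14) or a pseudocount of 1 (adjusted p = 0.06).

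Irf9, the DNA-binding part of the complex at the ISRE, went the other way. Its signals were 730, 441 and 471 in FBR cells, 1109, 1107 and 1007 in in vitro activated cells and 3381, 2410 and 2758 in blood cells. It was 5.17-fold lower in FBR than in blood cells (log2 fold change -2.37, SE 0.26, adjusted p = 0.00012), and a second probe set for Irf9 was lower as well (-2.50, SE 0.37, adjusted p = 0.00059). Irf9 was also lower in FBR cells than after in vitro activation (-0.99, SE 0.26, adjusted p = 0.022), a call that was lost without FBR replicate 2 or 3 or in vitro activated replicate 1 or 2 (adjusted p 0.056 to 0.092) and that the second probe set did not share (-0.67, SE 0.37, adjusted p = 0.22).

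Stat2, the partner of Irf9, had 1775, 1820 and 1962 in FBR cells, 717, 1048 and 972 in in vitro activated cells and 2550, 2598 and 2376 in blood cells. It was higher in FBR cells than after in vitro activation (1.03, SE 0.23, adjusted p = 0.01) and lower after in vitro activation than in blood (-1.46, SE 0.23, adjusted p = 0.0013). FBR and blood cells differed by -0.43 (SE 0.23, adjusted p = 0.19), which did not pass. Irf7, which amplifies interferon production, had 1004, 881 and 936 in FBR cells, 662, 484 and 320 in in vitro activated cells and 5277, 1344 and 2271 in blood cells. Both groups lay below blood, with log2 fold changes of -1.41 (SE 0.45, adjusted p = 0.037) in FBR and -2.39 (SE 0.45, adjusted p = 0.0037) in in vitro activated cells. The FBR call for Irf7 was lost when any of 6 arrays was left out, namely FBR replicate 1, 2 or 3, blood replicate 1 or 3 or in vitro activated replicate 2 (adjusted p 0.051 to 0.1).

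Among the antiviral effectors that act on nucleic acids, Oasl stood apart. Oasl belongs to the oligoadenylate synthetase family and in human and mouse modulates RNA and DNA sensing. Its signals were 12724, 17735 and 16953 in FBR cells, 885, 691 and 325 in in vitro activated cells and 2074, 613 and 1031 in blood cells. The FBR arrays did not overlap with either other group. Oasl was 14.1-fold higher in FBR than in blood cells (log2 fold change 3.81, SE 0.47, adjusted p = 0.00021) and 26.0-fold higher than in in vitro activated cells (4.70, SE 0.47, adjusted p = 0.00015). In vitro activated and blood cells overlapped (-0.89, SE 0.47, adjusted p = 0.2).

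Oas1a did not share this pattern. Oas1a, of the enzymes whose product activates RNase L, had 177, 106 and 72.3 in FBR cells, 146, 100 and 62.4 in in vitro activated cells and 950, 235 and 315 in blood cells. Every FBR and in vitro activated array was below every blood array, with log2 fold changes of -1.76 (SE 0.51, adjusted p = 0.023) in FBR and -1.92 (SE 0.51, adjusted p = 0.019) in in vitro activated cells. The FBR call was lost without FBR replicate 2 or 3 or blood replicate 1 (adjusted p 0.064 to 0.089) and the in vitro activated call without in vitro activated replicate 3 (adjusted p = 0.063). Oas1b was at 4.88 to 42.4 on all arrays and was not called. Of 19 alternatives only that without FBR replicate 3 gave calls for Oas1b. It was then higher in FBR than in blood (1.05, adjusted p = 0.034) and than in in vitro activated cells (1.13, adjusted p = 0.039). Signals this low have no known floor.

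Cmpk2, a mitochondrial nucleotide kinase, and Rsad2 (viperin), which makes an antiviral nucleotide, are neighbors in the genome and were both highest in blood, but they split between the other groups. Cmpk2 had 156, 106 and 81.4 in FBR cells, 396, 530 and 299 in in vitro activated cells and 2257, 1801 and 1118 in blood cells. The groups did not overlap, and Cmpk2 was 13.2-fold lower in FBR than in blood cells (-3.72, SE 0.34, adjusted p = 4.1e-05) and lower in FBR cells than after in vitro activation (-1.71, SE 0.34, adjusted p = 0.0061). Rsad2 had 274, 495 and 443 in FBR cells, 95.6, 70.7 and 30.8 in in vitro activated cells and 2097, 1493 and 431 in blood cells. FBR cells were here above in vitro activated cells (2.41, SE 0.55, adjusted p = 0.011), and in vitro activated cells were 14.7-fold lower than blood cells (-3.87, SE 0.55, adjusted p = 0.00072). FBR and blood cells overlapped for Rsad2 (-1.46, SE 0.55, adjusted p = 0.069), and this difference passed without blood replicate 3 (-2.13, adjusted p = 0.0056). A second Cmpk2 probe set was lower than blood in FBR and in in vitro activated cells but was not called between these groups (0.33, SE 0.49, adjusted p = 0.68), and the lower Cmpk2 in FBR cells than after in vitro activation did not pass when all its probe sets were averaged.

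The remaining enzymes of RNA defense lay below blood in both groups. Eif2ak2 (PKR), the kinase that stops translation on double-stranded RNA, had 446, 359 and 287 in FBR cells, 287, 477 and 409 in in vitro activated cells and 1719, 983 and 873 in blood cells, with log2 fold changes over blood of -1.62 (SE 0.32, adjusted p = 0.0034) in FBR and -1.53 (SE 0.32, adjusted p = 0.0065) in in vitro activated cells. Adar, which edits adenosine in double-stranded RNA, had 382, 322 and 383 in FBR cells, 194, 226 and 420 in in vitro activated cells and 1068, 1144 and 1186 in blood cells. It was lower than blood in FBR (-1.61, SE 0.29, adjusted p = 0.002) and in in vitro activated cells (-2.03, SE 0.29, adjusted p = 0.00077), and its 3 probe sets gave the same calls. The exonuclease Isg20 had 102, 122 and 93.1 in FBR cells, 175, 74 and 87 in in vitro activated cells and 231, 190 and 240 in blood cells, and had log2 fold changes over blood of -0.96 in FBR (SE 0.30, adjusted p = 0.035) and -0.96 in in vitro activated cells (SE 0.30, adjusted p = 0.042). These calls were lost when any of 5 arrays was left out for FBR over blood (adjusted p 0.061 to 0.11, FBR replicates 1, 2 and 3 and blood replicates 1 and 3) and any of 8 for in vitro activated over blood (adjusted p 0.058 to 0.13, all arrays but in vitro activated replicate 1).

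**Figure D4:**
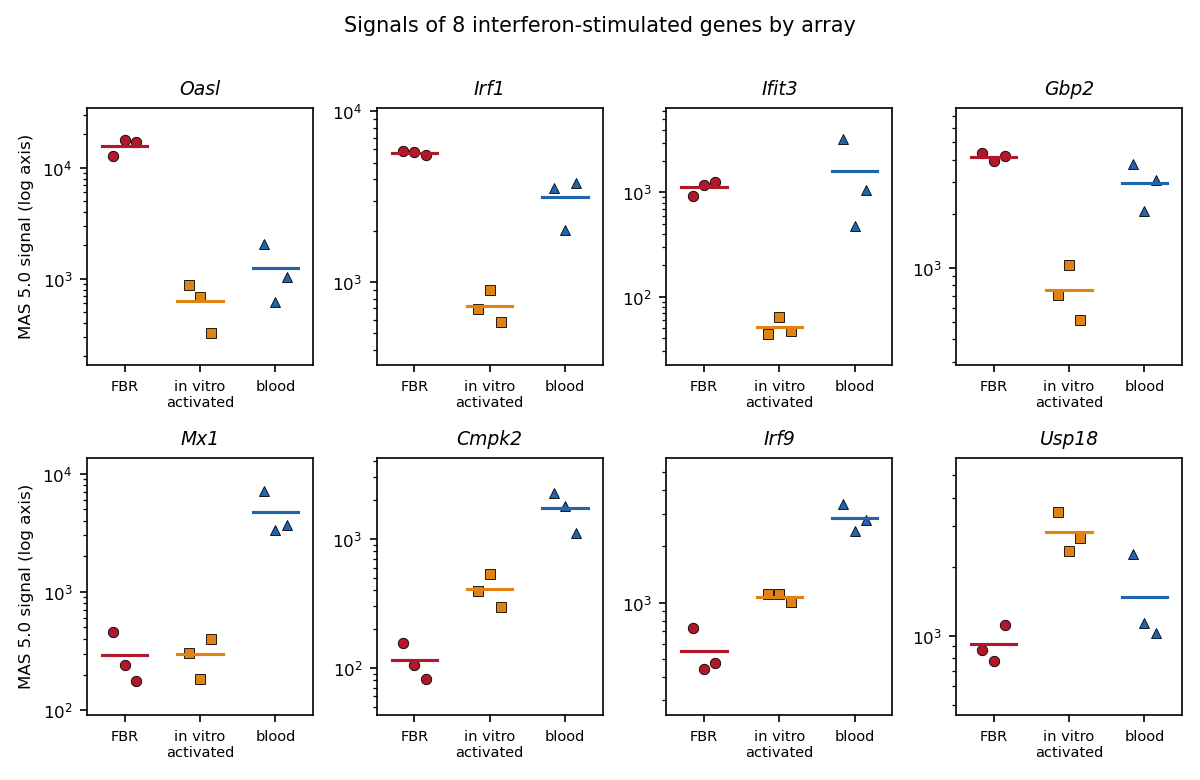
MAS 5.0 signals (log axis) of 8 interferon-stimulated genes on each array of FBR (circles), in vitro activated (squares) and blood cells (triangles). Horizontal lines are group means of 3 arrays. Oasl and Irf1 were highest in FBR cells, Ifit3 and Gbp2 were low in in vitro activated cells, Mx1, Cmpk2 and Irf9 were highest in blood cells, and Usp18 was highest in in vitro activated cells.

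The IFIT proteins, which bind foreign RNA and block its translation, lay near or within the blood range in FBR cells, and 2 of 3 were lower than blood after in vitro activation. Of all genes 12.2% were lower in that comparison. Ifit3 had 928, 1173 and 1254 in FBR cells, 43.8, 63.6 and 46.8 in in vitro activated cells and 3253, 473 and 1063 in blood cells. FBR and blood arrays overlapped (log2 fold change -0.09, SE 0.55, adjusted p = 0.93), with blood itself spread widely. In vitro activated cells were 17.9-fold below blood cells (-4.16, SE 0.55, adjusted p = 0.00048) and FBR cells were 16.8-fold above in vitro activated cells (4.07, SE 0.55, adjusted p = 0.00079).

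Ifit2 had 4498, 4580 and 4544 in FBR cells, 1770, 1750 and 600 in in vitro activated cells and 8083, 2528 and 3404 in blood cells. FBR cells were above in vitro activated cells (1.87, SE 0.49, adjusted p = 0.021), and a second probe set for Ifit2 gave 2.36 (SE 0.46). The call was lost without any 1 FBR array or without in vitro activated replicate 3 (adjusted p 0.055 to 0.063), and the lower value after in vitro activation than in blood (-1.73, SE 0.49, adjusted p = 0.027) was lost without blood replicate 1 or in vitro activated replicate 3 (adjusted p 0.075 to 0.085). Ifit1 was at 27.6 to 87 on all arrays and was not called. Without in vitro activated replicate 3 it was higher in FBR over in vitro activated (0.92, adjusted p = 0.047).

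The RNA sensors followed the IFIT genes in part. Ifih1 (MDA5), the sensor of long double-stranded RNA, had 166, 863 and 1071 in FBR cells, 102, 132 and 64.5 in in vitro activated cells and 299, 278 and 140 in blood cells. FBR replicates 2 and 3 were above all other arrays, while FBR replicate 1 was within the range of blood. FBR cells were higher than in vitro activated cells (2.32, SE 0.61, adjusted p = 0.021), a call lost without FBR replicate 2 or 3 or in vitro activated replicate 3 (adjusted p 0.063 to 0.082). Over blood the difference was 1.20 (SE 0.61, adjusted p = 0.17) with all arrays and 2.01 (adjusted p = 0.0056) without FBR replicate 1. Dhx58 (LGP2), which regulates MDA5, had 390, 395 and 450 in FBR cells, 213, 288 and 49.9 in in vitro activated cells and 648, 570 and 551 in blood cells. It was lower after in vitro activation than in blood (-1.86, SE 0.47, adjusted p = 0.016), and the difference between FBR and in vitro activated cells passed only when in vitro activated replicate 2 was left out or under other settings (1.36, SE 0.47, adjusted p = 0.064 with all arrays). The other probe sets of Dhx58 disagreed in part, 1 being higher in FBR over in vitro activated (0.89, SE 0.28, adjusted p = 0.047) and 1 lower in FBR over blood (-0.93, SE 0.24, adjusted p = 0.015).

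The ISG15 system divided by component. Isg15, the ubiquitin-like protein that is attached to targets, had 811, 1379 and 1362 in FBR cells, 299, 220 and 192 in in vitro activated cells and 1335, 361 and 685 in blood cells. It was higher in FBR cells than after in vitro activation (2.23, SE 0.43, adjusted p = 0.0052), and overlapped between FBR and blood cells (0.72, SE 0.43, adjusted p = 0.25). Without blood replicate 1 the difference from blood passed (1.18, adjusted p = 0.045). The lower Isg15 after in vitro activation than in blood (-1.51, SE 0.43, adjusted p = 0.028) was lost without blood replicate 1 or 3 or in vitro activated replicate 2 or 3 (adjusted p 0.067 to 0.083).

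Usp18, which removes Isg15 from proteins and restrains the type I interferon receptor, had the reverse order. Its signals were 869, 776 and 1116 in FBR cells, 3461, 2330 and 2660 in in vitro activated cells and 2273, 1137 and 1025 in blood cells. Usp18 was 3.02-fold lower in FBR cells than after in vitro activation (-1.59, SE 0.33, adjusted p = 0.0072). Each in vitro activated array exceeded every blood array, but the difference did not pass (1.00, SE 0.33, adjusted p = 0.052). It passed in 4 of 19 alternatives, namely without blood replicate 1 (1.35, adjusted p = 0.011), with the trend and robust options, with the filter on low signals and with a pseudocount of 64. Herc6, the main Isg15 ligase in mouse, had 69.5, 117 and 118 in FBR cells, 192, 180 and 113 in in vitro activated cells and 708, 297 and 381 in blood cells. It was lower than blood in FBR cells (-1.96, SE 0.36, adjusted p = 0.0021) and in in vitro activated cells (-1.37, SE 0.36, adjusted p = 0.019), the second of which was lost without blood replicate 1 or in vitro activated replicate 3 (adjusted p = 0.06 in each).

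Of the interferon-induced GTPases, Mx1 had the lowest log2 fold change over blood of the 36 genes in FBR cells. It blocks viral ribonucleoproteins and had 457, 242 and 175 in FBR cells, 306, 183 and 400 in in vitro activated cells and 7077, 3364 and 3699 in blood cells. It was 15.6-fold lower in FBR (log2 fold change -3.97, SE 0.43, adjusted p = 9.6e-05) and 14.9-fold lower in in vitro activated cells (-3.90, SE 0.43, adjusted p = 0.00016), and FBR and in vitro activated cells overlapped. Mx2 had 94.7, 65.8 and 54 in FBR cells, 46.8, 22.8 and 57.4 in in vitro activated cells and 1340, 603 and 645 in blood cells, and was lower than blood by 9.57-fold in FBR (-3.26, SE 0.37, adjusted p = 0.00014) and 14.6-fold in in vitro activated cells (-3.87, SE 0.37, adjusted p = 8e-05). A second Mx2 probe set with low signals (6.54 to 98.6) did not share this, was not called in FBR over blood (0.02, SE 0.36, adjusted p = 0.97) and was higher in in vitro activated over blood (1.27, SE 0.36, adjusted p = 0.027).

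Gbp2, a guanylate-binding protein of defense against bacteria in vacuoles, was not called lower in FBR cells. It had 4356, 3937 and 4177 in FBR cells, 702, 1042 and 511 in in vitro activated cells and 3795, 2064 and 3076 in blood cells. FBR cells were 5.66-fold above in vitro activated cells (2.50, SE 0.32, adjusted p = 0.00057) and in vitro activated cells were lower than blood cells (-1.98, SE 0.32, adjusted p = 0.0014). FBR arrays were all above the blood arrays for Gbp2, though the difference did not pass (0.52, SE 0.32, adjusted p = 0.26). Irgm, an immunity-related GTPase, had 331, 173 and 175 in FBR cells, 415, 424 and 454 in in vitro activated cells and 1061, 720 and 959 in blood cells, and was lower in FBR than in blood cells (-1.98, SE 0.29, adjusted p = 0.0006). Its lower values after in vitro activation than in blood (adjusted p = 0.025) and in FBR cells than after in vitro activation (adjusted p = 0.041) were lost when any of 4 and any of 7 arrays was left out (adjusted p 0.06 to 0.081 without blood replicate 1 or 3 or in vitro activated replicate 1 or 2, and 0.052 to 0.15 without those, FBR replicate 2 or 3 or in vitro activated replicate 3).

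Ifitm1 rose against blood in both groups. It encodes a membrane protein that hinders virus entry, and had 23461, 18870 and 15311 in FBR cells, 19940, 10475 and 6725 in in vitro activated cells and 4015, 983 and 4343 in blood cells. It was 7.29-fold higher in FBR than in blood cells (2.87, SE 0.57, adjusted p = 0.0033) and 4.32-fold higher after in vitro activation than in blood (2.11, SE 0.57, adjusted p = 0.021), the second of which was lost without in vitro activated replicate 1 (1.69, adjusted p = 0.075). The related Ifitm3 was at 40.5 to 224 on all arrays and was not called. Bst2 (tetherin), which holds budding virus at the cell surface, had 1051, 1101 and 863 in FBR cells, 425, 801 and 619 in in vitro activated cells and 1459, 637 and 1662 in blood cells, and was called in no comparison. Without blood replicate 2 it was lower after in vitro activation than in blood (-1.36, adjusted p = 0.014).

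The PARP proteins, ADP-ribosyltransferases of the interferon response, differed among themselves. Parp9 had 2544, 2755 and 2702 in FBR cells, 836, 847 and 1095 in in vitro activated cells and 5088, 3677 and 4286 in blood cells. It was 2.87-fold higher in FBR cells than after in vitro activation (1.52, SE 0.23, adjusted p = 0.0016) and 4.63-fold lower after in vitro activation than in blood (-2.21, SE 0.23, adjusted p = 0.00013). Its lower value in FBR than in blood cells (-0.69, SE 0.23, adjusted p = 0.046) was lost without any 1 of 7 arrays (FBR replicates 1, 2 and 3, blood replicates 1 and 3 and in vitro activated replicates 1 and 2, adjusted p 0.054 to 0.14). Parp12 had 360, 367 and 333 in FBR cells, 1095, 930 and 916 in in vitro activated cells and 733 and 618 in blood replicates 2 and 3, with replicate 1 missing and left out of its fit. Here FBR cells were 2.69-fold below in vitro activated cells (-1.43, SE 0.23, adjusted p = 0.0024), and their lower value than in blood (-0.90, SE 0.25, adjusted p = 0.023) was lost without any 1 FBR array or without blood replicate 2 or 3 (adjusted p 0.052 to 0.09). Parp14 had 664, 685 and 800 in FBR cells, 528, 847 and 636 in in vitro activated cells and 2042, 1931 and 1642 in blood cells, and was lower than blood in FBR (-1.36, SE 0.25, adjusted p = 0.002) and in in vitro activated cells (-1.48, SE 0.25, adjusted p = 0.0019).

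Of the remaining genes, Ifi44 and Ifi44l, a related pair of cytoplasmic proteins, were highest in blood. Ifi44l had 476, 238 and 231 in FBR cells, 1269, 709 and 458 in in vitro activated cells and 4464, 4722 and 3375 in blood cells, and was 13.3-fold lower in FBR (-3.73, SE 0.40, adjusted p = 9.5e-05) and 5.46-fold lower in in vitro activated cells (-2.45, SE 0.40, adjusted p = 0.0016). The difference between FBR and in vitro activated cells, whose arrays overlapped, was called (-1.28, SE 0.40, adjusted p = 0.043) but was lost without any 1 of 7 arrays, all but FBR replicate 1 and in vitro activated replicate 3 (adjusted p 0.053 to 0.14). Ifi44 had 514, 365 and 321 in FBR cells, 319, 586 and 393 in in vitro activated cells and 1854, 2180 and 1117 in blood cells, with log2 fold changes over blood of -2.03 (SE 0.33, adjusted p = 0.0012) in FBR and -1.94 (SE 0.33, adjusted p = 0.0022) in in vitro activated cells. Ifi35 had 568, 469 and 621 in FBR cells, 522, 595 and 850 in in vitro activated cells and 1348, 1227 and 1225 in blood cells, with -1.18 (SE 0.25, adjusted p = 0.0049) in FBR and -0.96 (SE 0.25, adjusted p = 0.018) in in vitro activated cells. The second was lost without blood replicate 1 or in vitro activated replicate 1 or 2 (adjusted p 0.053 to 0.064).

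Ifi27, a mitochondrial protein, had 7832, 7373 and 6860 in FBR cells, 4630, 3237 and 1483 in in vitro activated cells and 8720, 2792 and 5787 in blood cells. FBR arrays were all above in vitro activated arrays (1.38, SE 0.47, adjusted p = 0.061), a difference that passed without blood replicate 2 or in vitro activated replicate 1 (adjusted p 0.035 to 0.037). The peptide transporter Tap1 was at 499 to 1134 on all arrays and Lgals3bp, a secreted glycoprotein that binds galectins, at 156 to 2771, and neither was called. A second, dimmer Tap1 probe set was lower in in vitro activated over blood (-1.39, SE 0.38, adjusted p = 0.022). For Lgals3bp the FBR over blood difference of 1.41 (SE 0.70, adjusted p = 0.16) passed without blood replicate 1 (2.09, adjusted p = 0.04).

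Interferon genes themselves were measured for 3 of 12 names. Ifnb1 (interferon β) had 105, 53 and 47.9 in FBR cells, 6.84, 4.54 and 8.5 in in vitro activated cells and 7.48, 4.13 and 6.1 in blood cells. Every FBR array was above every other array, with log2 fold changes of 1.89 (SE 0.28, adjusted p = 0.0006) over blood and 1.84 (SE 0.28, adjusted p = 0.0014) over in vitro activated cells. These signals are low, and the pseudocount of 16 shrinks their ratio. They have no known floor, so the size of the ratio is uncertain. Ifng and Ifnk were at 0.714 to 41.5 and 2.64 to 17.5 on all arrays and were not called.

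Of 9 receptors and kinases of interferon signaling that were measured, 5 (55.6%) were higher in FBR over blood, against 14.6% of all genes. In in vitro activated over blood 1 was higher and 1 lower (11.1% each, against 15.4% and 12.2% of all genes), and in FBR over in vitro activated 3 were higher (33.3%, against 8.88%). Both chains of the interferon γ receptor were among them. Ifngr1 had 17331, 21120 and 20916 in FBR cells, 5102, 6721 and 10881 in in vitro activated cells and 6856, 4044 and 5099 in blood cells, and Ifngr2 had 7995, 9822 and 8755 in FBR cells, 2904, 2584 and 2281 in in vitro activated cells and 2577, 1010 and 2007 in blood cells. FBR arrays were above all others for each, by 1.92 (SE 0.32, adjusted p = 0.0013) over blood for Ifngr1 and 2.34 (SE 0.33, adjusted p = 0.0005) for Ifngr2. Jak2 was higher as well (1191, 960 and 955 in FBR, 311, 422 and 461 in in vitro activated and 567, 371 and 397 in blood cells, 1.21 over blood, SE 0.26, adjusted p = 0.0055). The type I receptor chains Ifnar1 (-0.23, SE 0.24, adjusted p = 0.53) and Ifnar2 (0.52, SE 0.40, adjusted p = 0.39) were not called in FBR over blood. The kinases Jak1 (-0.56, SE 0.21, adjusted p = 0.075) and Tyk2 (-0.64, SE 0.23, adjusted p = 0.062) had lower signals on all FBR than on all blood arrays without passing. Both passed with quantile normalization, array weights, the trend and robust options, the filter on low signals or a pseudocount of 64. Tyk2 was lower than blood after in vitro activation (-0.82, SE 0.23, adjusted p = 0.027). This call was lost without blood replicate 1 or 3 or in vitro activated replicate 1 or 2 (adjusted p 0.052 to 0.087). Il10rb, a chain shared by interferon λ and interleukin-10 receptors, was higher than blood in FBR (1.18, SE 0.25, adjusted p = 0.0052) and in in vitro activated cells (1.41, SE 0.25, adjusted p = 0.0028). Ifnlr1, the other chain of the interferon λ receptor, was called as well (0.97, SE 0.26, adjusted p = 0.018) at signals of 3.64 to 38.2, a call lost without FBR replicate 2 or 3 or blood replicate 1 (adjusted p 0.056 to 0.081).

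Sensors and adaptors that induce interferons were measured for 14 of 21 names. In FBR over blood 3 were higher (21.4%, against 14.6% of all genes) and 5 lower (35.7%, against 19.2%). In in vitro activated over blood 3 were lower (21.4%, against 12.2%). In FBR over in vitro activated 2 were higher (14.3%, against 8.88%) and 1 lower (7.14%, against 16.7%). Tlr7, the endosomal receptor for single-stranded RNA, had 4895, 9789 and 9034 in FBR cells, 982, 1066 and 539 in in vitro activated cells and 2632, 912 and 1711 in blood cells (2.23 over blood, SE 0.44, adjusted p = 0.0032). Tbk1, the kinase that activates Irf3, was higher in FBR than in blood (1.00, SE 0.24, adjusted p = 0.0098) and Irf3 itself was lower (-1.49, SE 0.25, adjusted p = 0.0012). Irf3 was also lower than blood in in vitro activated cells (-1.96, SE 0.25, adjusted p = 0.00037). Between FBR and in vitro activated cells Irf3 was not called (0.47, SE 0.25, adjusted p = 0.2). Sting1, the adaptor of cytosolic DNA sensing, had 1095, 970 and 992 in FBR cells, 4230, 3971 and 2863 in in vitro activated cells and 2801, 4543 and 4107 in blood cells, and only the FBR arrays were low (-1.86 over blood, SE 0.27, adjusted p = 0.00052). Zbp1, a sensor of Z-form nucleic acids, was lower than blood in FBR (-2.53, SE 0.36, adjusted p = 0.00053) and in in vitro activated cells (-3.07, SE 0.36, adjusted p = 0.00026). The receptor Tlr4, which senses lipopolysaccharide, was not called in FBR over blood and had a value on only 1 in vitro activated array (700). Tlr8 was not called in any comparison, though all its FBR arrays lay below all in vitro activated arrays (-1.33, SE 0.49, adjusted p = 0.079). The other called genes in FBR over blood were Ticam1, an adaptor of Tlr3 and Tlr4, which was higher (0.99), and Trim25 (-1.55) and Mavs (-0.66), both of RNA sensing, which were lower. Trim25 was also lower than blood in in vitro activated cells (-1.28, SE 0.34, adjusted p = 0.02). That call was lost without blood replicate 1 or 3 or in vitro activated replicate 1 (adjusted p 0.051 to 0.06). The Mavs call (adjusted p = 0.047) was lost in 13 alternatives, among them centring each array and leaving out any 1 FBR array.

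Of negative regulators all 12 names were measured. In FBR over blood 3 were higher (25%, against 14.6% of all genes) and 3 lower (25%, against 19.2%). In in vitro activated over blood 4 were lower (33.3%, against 12.2%). In FBR over in vitro activated 3 were higher (25%, against 8.88%) and 1 lower (8.33%, against 16.7%). Socs3, an inhibitor of cytokine receptor signaling, had 410, 428 and 407 in FBR cells, 4.67, 51.4 and 52.8 in in vitro activated cells and 60.5, 99.2 and 72.7 in blood cells. Ptpn1, a phosphatase of Jak2 and Tyk2, had 3256, 3634 and 3572 in FBR cells, 450, 517 and 306 in in vitro activated cells and 802, 354 and 549 in blood cells. Tnfaip3, an inhibitor of NF-κB signaling, had 29915, 36153 and 26420 in FBR cells, 3296 and 1767 on the 2 in vitro activated arrays with a value and 5780, 4390 and 5321 in blood cells. It was higher in FBR than in blood by 2.57 (SE 0.30, adjusted p = 0.00023). Against blood Socs3 and Ptpn1 were higher in FBR cells as well, by 2.23 (SE 0.43, adjusted p = 0.0028) for Socs3 and 2.66 (SE 0.32, adjusted p = 0.0002) for Ptpn1. Samhd1, which depletes deoxynucleotides and limits viral reverse transcription, was lower than blood in both, with log2 fold changes of -4.26 (SE 0.39, adjusted p = 4.1e-05) in FBR and -4.25 (SE 0.39, adjusted p = 7e-05) in in vitro activated cells. Pias1, an inhibitor of STAT binding to DNA, was also lower in FBR than in blood (-1.78, SE 0.33, adjusted p = 0.0022). So was the phosphatase Ptpn6 (-1.33, SE 0.26, adjusted p = 0.003). Tnfaip3 and Ptpn6 were also called lower in in vitro activated over blood. Both calls were lost with each array centred on its median, with only the 6 arrays compared or with a pseudocount of 1. They were also lost with the replicate number as a block. Leaving out any of 7 arrays lost the Tnfaip3 call, and leaving out any of 6 lost the Ptpn6 call.

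Chemokines induced by interferons were measured for 7 of 8 names. In FBR over blood 4 were higher (57.1%, against 14.6% of all genes) and 1 lower (14.3%, against 19.2%). In in vitro activated over blood 2 were higher (28.6%, against 15.4%) and 3 lower (42.9%, against 12.2%). In FBR over in vitro activated 3 were higher (42.9%, against 8.88%). Cxcl10, a ligand of Cxcr3 on T cells, had 3636, 3242 and 2896 in FBR cells, 80, 41.6 and 105 in in vitro activated cells and 277, 111 and 206 in blood cells. It was higher in FBR than in blood cells by 4.01 (SE 0.36, adjusted p = 3.6e-05). Over in vitro activated cells FBR cells were higher by 5.22 (SE 0.36, adjusted p = 2.4e-05). Cxcl10 was also called lower in in vitro activated over blood, a call lost when any of 6 arrays was left out (adjusted p 0.051 to 0.12). Cxcl11, another Cxcr3 ligand, had 369, 292 and 269 in FBR cells, 31.8, 54.4 and 48.6 in in vitro activated cells and 204, 136 and 289 in blood cells, and was higher in FBR cells than after in vitro activation (2.43, SE 0.30, adjusted p = 0.00052) but not called over blood (0.58, SE 0.30, adjusted p = 0.19). That value depended on the scaling, and passed when each array was centred on its median or quantile normalized (0.94, adjusted p = 0.04 in each). Cxcl9, the third Cxcr3 ligand and a classical target of interferon γ, was at 10.1 to 85.1 on all arrays and was not called.

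The monocyte attractants Ccl2 and Ccl7 exceeded blood in FBR cells. Ccl7 had 20969, 20507 and 14765 in FBR cells, 1780, 491 and 135 in in vitro activated cells and 7.24, 7.31 and 402 in blood cells. It was higher in FBR than in blood by 8.25 (SE 1.11, adjusted p = 0.00036) and than in in vitro activated cells by 5.17 (SE 1.11, adjusted p = 0.0083). Ccl2 had 39469, 42328 and 30810 in FBR cells, 13770, 8618 and 3278 in in vitro activated cells and 269, 94.1 and 3986 in blood cells. It was higher than blood in FBR (6.22, SE 1.07, adjusted p = 0.0015) and in in vitro activated cells (3.87, SE 1.07, adjusted p = 0.024). The second call was lost without blood replicate 1 or 2 or in vitro activated replicate 1 or 2 (adjusted p 0.063 to 0.085). For both genes blood replicate 3 was far above the other blood arrays. Cxcl16, the ligand of Cxcr6, was higher than blood in FBR (1.55, SE 0.39, adjusted p = 0.012) and in in vitro activated cells (2.16, SE 0.39, adjusted p = 0.0029). Ccl5, which T cells and NK cells also make, went the other way, with 16.6, 56.1 and 7.96 in FBR cells, 48.7 and 58.7 on the 2 in vitro activated arrays with a value and 258, 1700 and 427 in blood cells. It was lower in FBR than in blood cells (-3.95, SE 0.65, adjusted p = 0.0015). Its highest value was on blood replicate 2, the blood array with the highest NK cell sum (8613). The part of NK cells in it was not tested.

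Genes of MHC class I presentation, measured for 13 of 14 names, had 2 higher (15.4%) and 3 lower (23.1%) in FBR over blood, near the 14.6% and 19.2% of all genes. In in vitro activated over blood 2 were higher (15.4%, as among all genes) and 3 lower (23.1%, against 12.2%), and in FBR over in vitro activated 2 were higher (15.4%, against 8.88%) and 1 lower (7.69%, against 16.7%). The immunoproteasome subunit Psmb9 and Nlrc5, the regulator of class I genes, were lower in FBR than in blood (-1.55, SE 0.29, adjusted p = 0.0031, and -1.40, SE 0.30, adjusted p = 0.0054), and the chaperone Calr was higher (1.93, SE 0.25, adjusted p = 0.00032). The other called genes in FBR over blood were the immunoproteasome subunit Psmb10 (-1.28, adjusted p = 0.0061, with 2 FBR arrays) and Pdia3 of the peptide-loading complex (1.32, adjusted p = 0.016), which was higher. The Pdia3 call was lost with quantile normalization and without FBR replicate 2 or blood replicate 2 (adjusted p 0.052 to 0.067). The Psmb10 call was lost without FBR replicate 2 (adjusted p = 0.055). In FBR over in vitro activated the higher genes were Calr and Tapbp, calls lost when any of 6 and any of 4 arrays was left out. In in vitro activated over blood the calls of Canx (higher) and Tapbp (lower) were lost without any of 6 and any of 8 arrays. B2m, the light chain of class I molecules, was not called in any comparison.

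**Figure D5:**
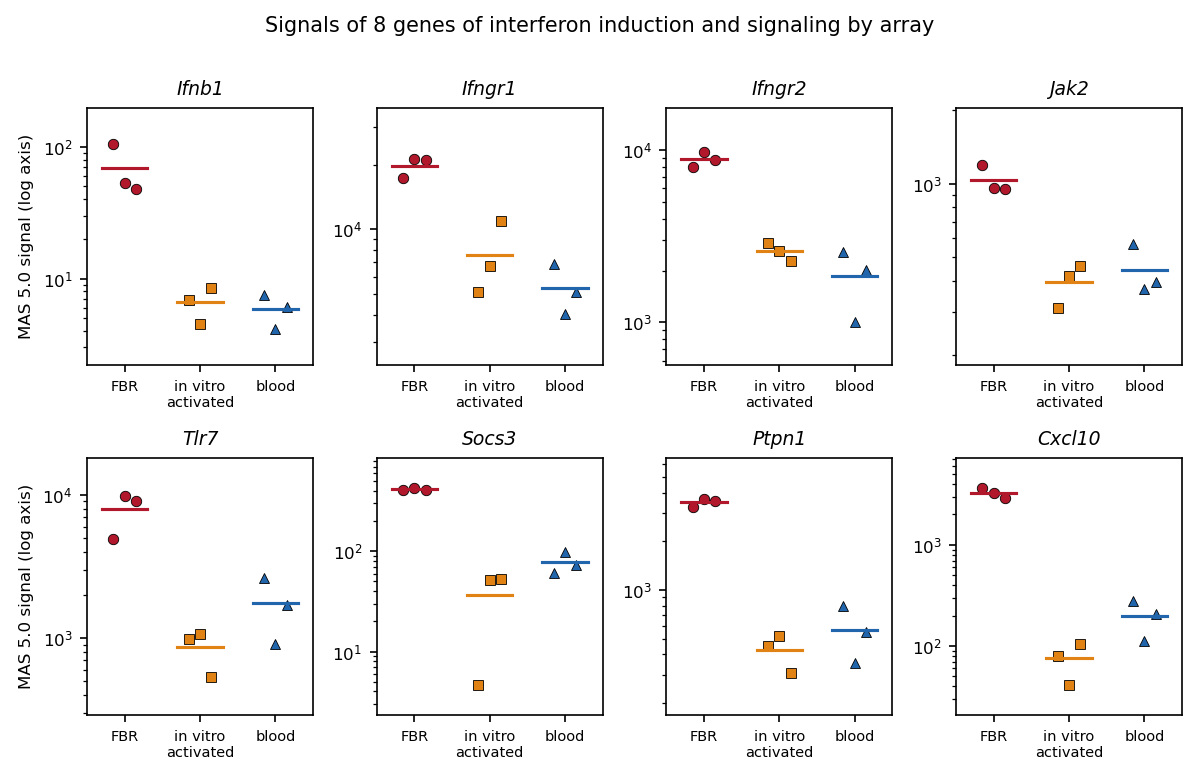
MAS 5.0 signals (log axis) on each array for 8 genes of interferon induction, signaling and response, with FBR as circles, in vitro activated as squares and blood as triangles. Horizontal lines are group means of 3 arrays. For each of the 8 genes shown all FBR arrays were above all in vitro activated and blood arrays, and the Ifnb1 signals stayed at 105 or below. Genes of the same lists that were lower in FBR than in blood, such as Irf3, Sting1 and Zbp1, are not shown.

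Plasmacytoid dendritic cells, a source of type I interferon, could also be part of a blood preparation. Of their markers 7 of 11 were measured, and summed to 7169 to 11311 in FBR cells, 2939 to 3742 in in vitro activated cells and 8679 to 11832 in blood cells. In FBR over blood 2 were higher (28.6%, against 14.6% of all genes) and 4 lower (57.1%, against 19.2%). In in vitro activated over blood 5 were lower (71.4%, against 12.2%). The FBR sum was led by Clec10a (8382, 6596 and 6173), which macrophages also express. Fibroblast markers summed to 825 to 2063 in FBR cells, 453 to 944 in in vitro activated cells and 627 to 953 in blood cells. In FBR over blood 5 of 10 were higher (50%, against 14.6% of all genes) and 1 lower (10%, against 19.2%). The part of these cell types in the levels of the 36 genes was not tested.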

How the data were processed

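RNA of 9 samples of CD68+ cells was hybridized to Affymetrix rat arrays, 3 for each of FBR, in vitro activated and blood cells. The authors deposited MAS 5.0 signals, which are averaged probe intensities of each probe set, scaled to the same target on each array, and the processing notes also name RMA. In the deposited table part of the signal values had lost the decimal point or had become dates. Of 279891 values 83.44% were used as deposited, 15.45% were divided to restore the decimals, 0.07% were read back from dates and 1.04% were ambiguous and left missing. Tables of the authors' own comparisons (log2 fold changes and p-values, deposited from RMA) were not used.

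Values were tested as log2(signal + 16) with limma 3.58.1 in R 4.3.3, with 1 mean per group over all 9 arrays, 6 residual degrees of freedom, and Benjamini-Hochberg adjustment over 31099 probe sets. An exact permutation of 3 against 3 arrays cannot go below p = 0.1. Of the probe sets 20832 carried 1 symbol, 436 several and 9831 none, and all 36 genes matched RefSeq by Entrez ID. The scripts were tested on simulated data. Replicates are biological by label, but whether arrays come from separate rats was not stated, so p-values measure the spread between these arrays. The number of arrays limits the precision.

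The genes, lists and tests were chosen with earlier results of these data known. All measured genes of the list are named, and of the other pathway lists measured ligands, receptors and Janus kinases were named, with up to 4 further genes per list and comparison among the largest changes called. The other genes of these lists called in FBR over blood were named as well, and B2m without a call. Alternatives covered the pseudocount, a filter on signals under 100, normalization, the arrays in the fit, the variance model, array weights, a replicate block, leaving out each array, averaging probe sets, leaving restored values missing and a threshold of 0.01. The same alternatives for pathway genes outside the list were added after seeing the data. Promoter windows came from RefSeq (GRCr8).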

Additional observations from a re-analysis of the deposited data

Results flagged for a closer look

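Irf1 differed in opposite directions from the blood cells. Its log2 fold change over blood was 0.91 in FBR cells and -2.06 in in vitro activated cells, and every FBR array was above and every in vitro activated array below every blood array. The FBR call over blood (adjusted p = 0.036) was lost in 7 of 19 alternatives, and the in vitro activated call in none of 20. Both values use the same blood arrays. The difference itself, FBR over in vitro activated, was 2.97 (SE 0.29, adjusted p = 0.00014, limma). Groups of 3 arrays were too small to look for single arrays far from the rest.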

How the results depend on the processing

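Over 20 alternative settings, 2116 values of single genes were compared with the reported ones. Of these 1958 stayed on their side of the threshold, 126 lost the call, 32 gained one and 0 called values changed direction, while 54 values that passed in neither setting changed sign. Among called genes, 14 of 20 in FBR over blood, 16 of 25 in in vitro activated over blood and 9 of 16 in FBR over in vitro activated were called in every setting in which they were tested. The counts of called genes below come without the share of all genes called in the same setting. They describe how far the calls held and are not set against all genes.

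Leaving restored values missing left 20, 22 and 28 genes to test in FBR over blood, in vitro activated over blood and FBR over in vitro activated, and the fewer genes and values gave 1 higher and 9 lower, 9 lower with a median of -0.99, and 4 higher and 2 lower. Centring each array moved the median of FBR over blood to -0.28 and that of FBR over in vitro activated to 0.82, with 3 lower genes in the second of these. The median of FBR over in vitro activated was 0.58 and 0.30 with a pseudocount of 1 and 64, 0.34 with the filter on low signals and 0.34 with averaged probe sets. The 1 gene higher in in vitro activated over blood became 2 with the trend and robust options, the low signal filter or a pseudocount of 64, and 0 with only the 6 arrays compared or a threshold of 0.01. That threshold gave 6 higher and 3 lower genes in FBR over in vitro activated. Beyond what each alternative changes by construction, the cause was not tested.

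Leaving out each array gave 2 to 5 higher and 12 to 17 lower genes in FBR over blood (median -0.76 to -0.50), 0 to 2 and 18 to 24 in in vitro activated over blood (-1.56 to -1.24) and 8 to 11 and 3 to 6 in FBR over in vitro activated (0.33 to 0.67). The 5 came without blood replicate 1, and the 3 without FBR replicate 2 or 3 or in vitro activated replicate 1 or 2. Of the genes higher in in vitro activated over blood, 0 remained without in vitro activated replicate 1 and 2 were called without blood replicate 1.

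No sign of pairing by replicate number was seen. Deviations of same-numbered arrays correlated at -0.06 to 0.07 and those of differently numbered arrays at -0.05 to 0.08. Such a check cannot exclude a small shared effect. With the replicate number as a block, 2 genes were higher and 15 lower in FBR over blood (median -0.64), 1 and 23 in in vitro activated over blood (-1.47) and 10 and 6 in FBR over in vitro activated (0.48), and Irf1 was not called in FBR over blood (0.91, adjusted p = 0.064). The signals carry no detection calls, so levels under about 100 have no known floor.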
